A study of Rattus norvegicus with 10 samples.

Results

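Cytosolic ribosomal proteins are the protein components of the ribosomes that translate nuclear-encoded mRNAs, and their genes were followed here in cultured heart muscle cells (cardiomyocytes) taken from neonatal rats. Members were taken by name: every gene whose symbol begins with Rpl or Rps and goes on as ribosomal protein symbols do, plus Rpsa, Rplp0, Rplp1 and Rplp2. This gave 102 of the 39784 gene names, and 89 of the 102 reached a mean of 1 TPM (a length-corrected measure that is scaled to the same total in each library) and were tested. The standard set of 77 genes encodes 31 proteins of the small (40S) subunit and 46 of the large (60S) subunit, its stalk included. The other 25 members were 8 paralogs, each related to the gene of a standard protein (its parent gene), and 17 numbered copies such as Rps15al4.

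The tested cells were labelled as treated with Ad-Xon-YAP5SA (2 RNA-seq libraries) and their comparison cells as treated with Ad-Xon-YAP5SA-S94A (2 libraries). Both were wild-type heart cells in culture, their age given only as neonatal. YAP is a transcriptional coactivator restrained by the Hippo pathway, and YAP5SA is an activated form in which inhibitory phosphorylation sites are replaced by alanine. The S94A change disrupts its binding to TEAD, the DNA-binding partner, so both forms are overexpressed and differ in that contact. RNA from cells without either form was not among the data used, so a difference cannot be assigned to one of the forms. CUT&RUN data (6 samples) were not analysed here.

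Aligned sequence amounted to between 4.02 and 5.10 gigabases per library. Yap1 stood at 105 and 99.1 TPM in YAP5SA cells, against 117 and 121 TPM in YAP5SA-S94A cells (log2 difference −0.22, limma adjusted p = 0.122), and whether the vectors' own mRNA is counted there is not given in the sources used here. All 8 cardiomyocyte markers were present, with summed levels of 17928 and 18861 TPM in YAP5SA cells and 25570 and 26117 TPM in YAP5SA-S94A cells, and 6 of the 8 were called lower in YAP5SA. Fibroblast markers summed to 8045 and 6262 TPM in YAP5SA cells and 6515 and 6106 TPM in YAP5SA-S94A cells, with none called higher and 1 of 8 called lower. Macrophage and leukocyte markers summed to 551 and 531 TPM in YAP5SA cells and 838 and 831 TPM in YAP5SA-S94A cells, with 1 of 6 tested called higher, 3 called lower, and the T cell marker Cd3e at 0. Epicardial and mesothelial markers summed to 70.2 and 57.5 TPM in YAP5SA cells, against 13.1 and 12.6 TPM in YAP5SA-S94A cells, with 3 of 4 called higher. Smooth muscle markers summed to 300 and 266 TPM in YAP5SA cells, against 216 and 229.5 TPM in YAP5SA-S94A cells, with 1 of 6 called higher. Endothelial markers summed to 20.8 and 23.0 TPM in YAP5SA cells and 32.5 and 31.2 TPM in YAP5SA-S94A cells, with 1 of 5 tested called higher and 1 lower, and both erythroid markers found were at 0. The mitochondrial chromosome took 7.53% and 10.2% of TPM in YAP5SA libraries and 12.6% and 14.0% in YAP5SA-S94A libraries. In bulk RNA, fewer cells of a type and less RNA per cell cannot be told apart, and the part of these shifts in the results below was not tested.

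A ribosome joins a small subunit, which reads the mRNA, to a large subunit, which forms the peptide bond and carries the exit tunnel for the new protein. Its proteins are needed in near-equal amounts and come from genes scattered over the genome. In mammals their mRNAs typically begin with a terminal oligopyrimidine (TOP) tract, a C followed by a run of C and T bases, through which mTORC1 and LARP1 adjust their translation. Ribosome production rises in growing cells and is a known feature of cardiac hypertrophy, and MYC is a known activator of ribosomal protein genes and of the factors that assemble ribosomes.

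Ribosomal protein mRNAs were among the most abundant in these cells. Together the members took 11.6% and 12.1% of all TPM in YAP5SA cells, against 10.5% and 10.1% in YAP5SA-S94A cells. Both YAP5SA values lay above both others, by 1.55 percentage points on average, or a ratio of summed TPM of 1.15. The mean share was 11.8% ± 0.398 in YAP5SA cells and 10.3% ± 0.286 in YAP5SA-S94A cells (SD, n = 2 each). The share was not tested, because with 2 libraries per form the smallest two-sided p of an exact permutation test is 0.333. The 40S proteins took 4.89% and 5.18% of TPM in YAP5SA cells, against 4.40% and 4.25% in YAP5SA-S94A cells. The 60S proteins took 6.51% and 6.76% in YAP5SA cells, against 5.94% and 5.69% in YAP5SA-S94A cells. TPM shares sum to a fixed total, so the lower mitochondrial share in YAP5SA cells enters this difference: with the mitochondrial chromosome left out, the members' share differed by 1.14 percentage points. With quantile normalization it differed by 0.771 percentage points.

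Mean levels over the 4 libraries ran from 158 TPM for Rpl22 to 3539 TPM for Rpl41 in the standard set, with a median of 1347 TPM, and 58 of the 77 genes stood at 1000 TPM or more. Of the 100 most abundant genes, 37 and 42 were members in the YAP5SA libraries and 32 in each YAP5SA-S94A library. The 5 highest members were Rpl41, Rpl19, Rps29, Rplp1 and Rplp0. Rpl41, which encodes the very short 60S peptide eL41, stood at 3450.5 and 3779 TPM in YAP5SA cells, against 3644 and 3282 TPM in YAP5SA-S94A cells. These groups overlapped. Rpl19, a 60S protein that also bridges to the small subunit, stood at 2976 and 3039 TPM in YAP5SA cells, against 2572 and 2563 TPM in YAP5SA-S94A cells, with no overlap but no call (log2 difference 0.23, limma adjusted p = 0.0807). Rps29, a zinc-binding 40S protein, stood at 2695 and 2726 TPM in YAP5SA cells, against 2587 and 2336 TPM in YAP5SA-S94A cells, again apart and not called (0.14, limma adjusted p = 0.288).

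**Figure D1:**
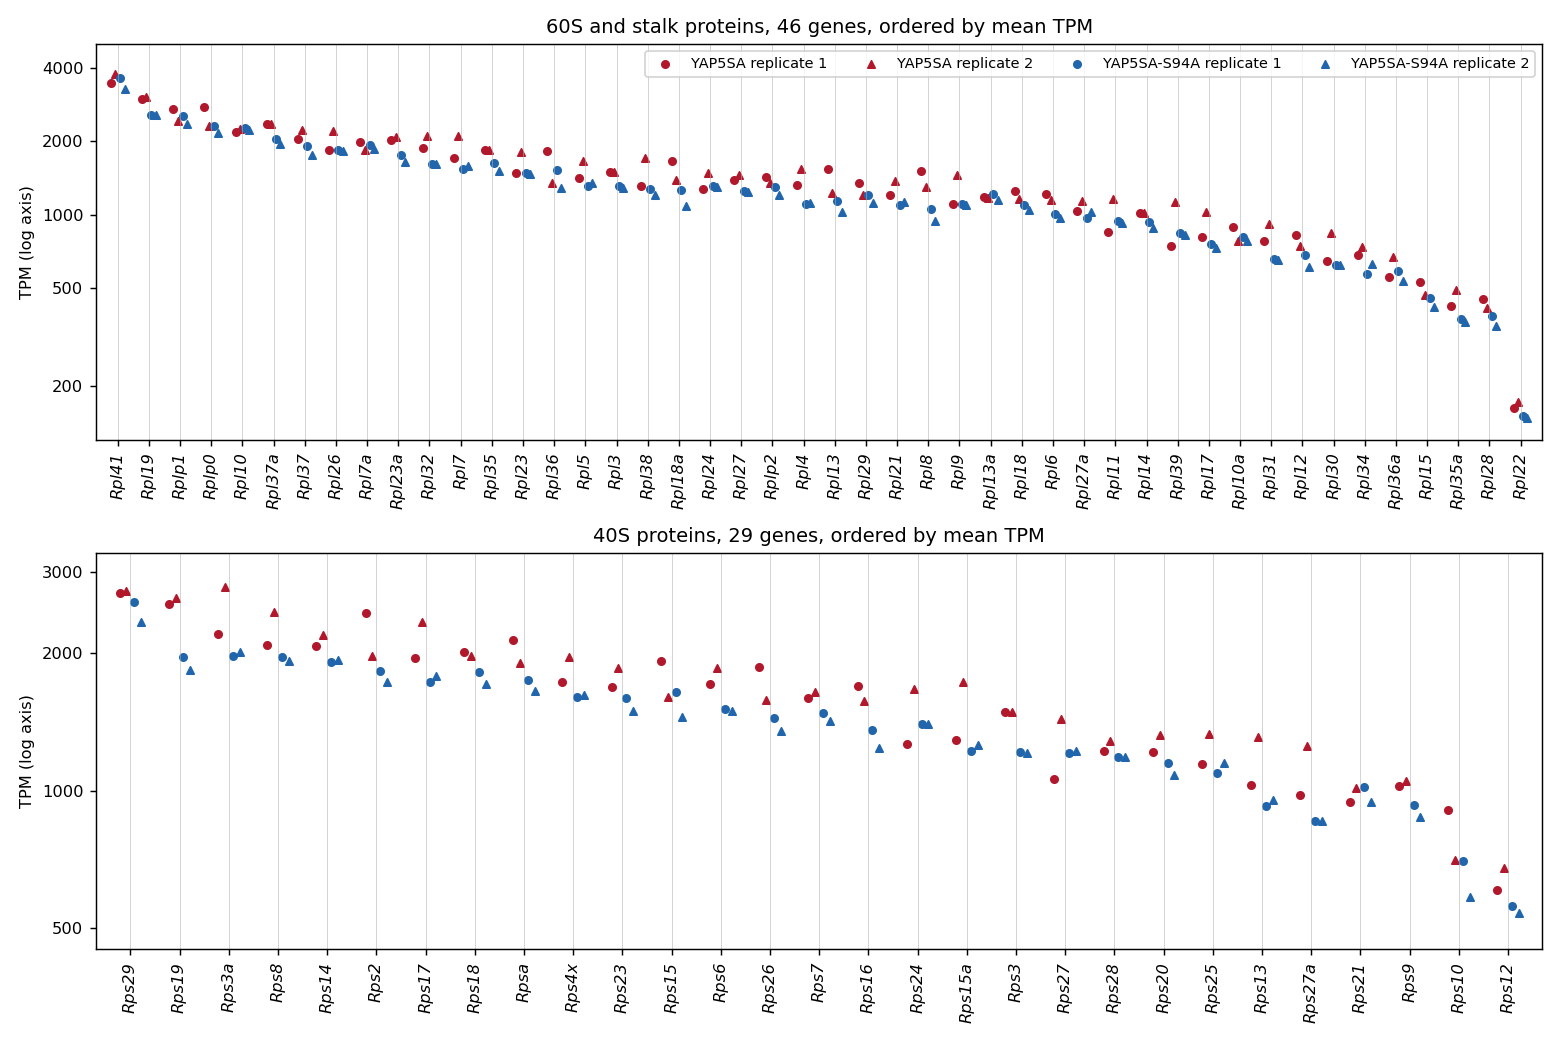
Level of 75 of the 77 standard ribosomal protein genes in each library, in TPM on a log axis, ordered by mean level within the 60S (top) and 40S (bottom) subunit; red marks YAP5SA and blue YAP5SA-S94A libraries, circles replicate 1 and triangles replicate 2. Most genes lie near the median of 1347 TPM, Rpl22 stands alone at 158 TPM, and the red points are above the blue ones at most genes.

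The starts of these genes were read to see what the members share beyond their names. Sequences are from RefSeq (build GRCr8, a later build than that of the deposited tables, matched by symbol), and 80 of the 102 members had an entry, 61 of them in the standard set. A TOP was counted where the annotated first base is a C followed by at least 4 bases that are each C or T, on the strand of the transcript only. Of the 61 standard genes 24 began with one (39.3%, exact Clopper-Pearson 95% interval 27.1 to 52.7%), against 881 of 33469 starts in the table (2.63%). With such a C anywhere up to 10 bases either side of the annotated start, the share was 46 of 61 (75.4%), against 28.9% of all starts. The first base was a C in 33 of the 61 (54.1%) and in 24.1% of all starts. Among the 19 members outside the standard set that had an entry, 1 began with a TOP. Below, 40 bases before the start and 20 from the start on are shown for selected members, 5′ to 3′. Most of these are abundant or called, while Rps27 and Rpl22 are parents of paralogs and were not called. Capitals mark the bases from the C of such a run nearest the annotated start to the end of the run. Any C or T bases just before that C stay in lower case. In the first 5 the capitals begin at the annotated start, in Rps23 (chosen for its long run) and Rpl4 they begin just before it, and Rps19 and Rpl41 hold no such run within 10 bases.
Rpl19 (chr10:83519024-83519083, plus strand): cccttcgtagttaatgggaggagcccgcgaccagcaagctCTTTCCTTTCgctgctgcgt
Rplp0 (chr12:46718371-46718430, minus strand): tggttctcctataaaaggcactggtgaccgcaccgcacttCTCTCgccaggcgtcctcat
Rplp1 (chr8:71290853-71290912, minus strand): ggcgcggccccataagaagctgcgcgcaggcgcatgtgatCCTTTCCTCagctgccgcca
Rps27 (chr2:177964587-177964646, minus strand): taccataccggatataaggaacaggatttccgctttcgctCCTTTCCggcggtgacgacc
Rpl22 (chr5:168117921-168117980, plus strand): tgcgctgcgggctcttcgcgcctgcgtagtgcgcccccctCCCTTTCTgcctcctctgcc
Rps23 (chr2:23814477-23814536, plus strand): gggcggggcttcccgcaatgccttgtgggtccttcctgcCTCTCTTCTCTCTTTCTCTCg
Rpl4 (chr8:73566437-73566496, plus strand): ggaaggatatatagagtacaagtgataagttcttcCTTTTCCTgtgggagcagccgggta
Rps19 (chr1:89608648-89608707, plus strand): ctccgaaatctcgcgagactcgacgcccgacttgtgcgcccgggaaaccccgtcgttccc
Rpl41 (chr7:1563478-1563537, minus strand): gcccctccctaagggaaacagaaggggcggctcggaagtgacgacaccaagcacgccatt

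The runs differed in length and in letters. From the start on, the run was 10 bases long in Rpl19, 9 in Rplp1, 8 in Rpl22, 7 in Rps27 and 5 in Rplp0. In all 5 it continued an unbroken stretch of C and T bases from before the annotated start, by 1 base in Rplp1 and by 7 bases in Rpl22. The whole stretch was 21 bases long in Rps23 and 14 bases in Rpl4, where it began 11 bases before the annotated start. No match in a window says only that these letters are not in it, since the annotated start can lie away from the start used in cardiomyocytes. Genes with and without a TOP at the start differed little between the forms of YAP: the median log2 difference was 0.20 both for the 24 genes with it (1 called) and for the 37 without it (4 called).

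Most ribosomal protein genes were slightly higher in YAP5SA cells, and few passed the test. A difference is log2(TPM + 1) in YAP5SA minus that in YAP5SA-S94A, tested with limma over all 13420 genes that reached a mean of 1 TPM and called at a Benjamini-Hochberg adjusted p under 0.05. Of the 89 members tested, 81 (91.0%) had a difference above 0, against 50% of all genes tested. In 64 members both YAP5SA libraries lay above both YAP5SA-S94A libraries, against 34.5% of all genes tested, and in 2 both lay below, against 33.8%. The median difference was 0.20 with quartiles of 0.14 and 0.29, against a median of 0.00 and quartiles of −0.33 and 0.34 over all genes. The members were thus shifted by a small amount and lay close together.

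With all 4 libraries and no other term in the fit, called members were no more frequent than called genes in general. There were 11 called higher (12.4%), against 17.4% of all genes tested, and 1 called lower, against 15.5%. The other 77 did not pass. At an unadjusted p under 0.05 with limma, 35 members were higher, a count given without the matching share of all genes. Of the 882 other genes at least as abundant as the lowest standard gene, 28.1% were called higher and 26.3% lower, with a median of 0.00. This did not hold in every fit: with the replicate number added, 30 of the 89 were called higher, against 2726 of the 13420 genes tested. Nor did it hold when either YAP5SA library was left out, while it held when either YAP5SA-S94A library was left out. The count of 11 thus also rested on single libraries, and it changed whichever library was left out. Where 1 library of a form was left out, the remaining one was assumed to vary like the other form. The median difference was between 0.16 and 0.24 in those 4 fits.

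**Figure D2:**
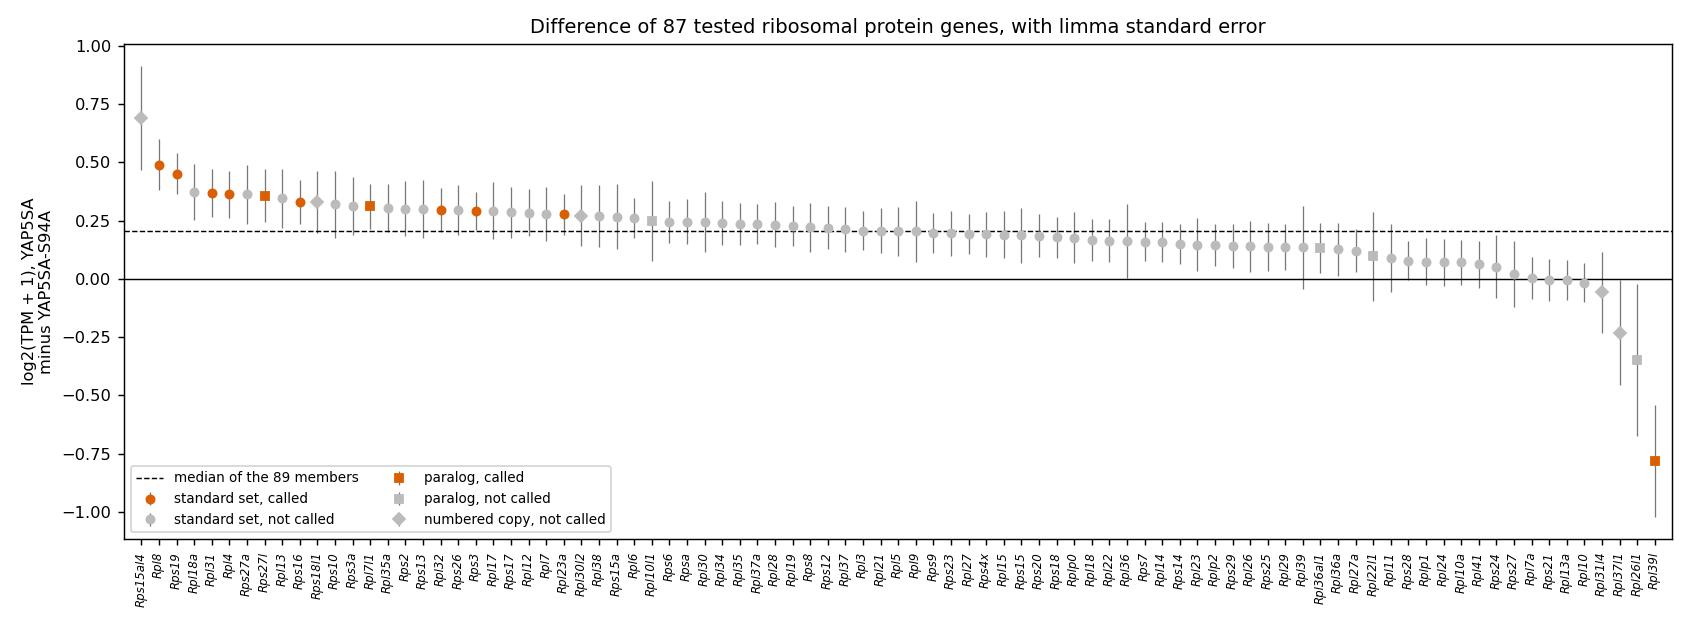
Log2(TPM + 1) difference, YAP5SA minus YAP5SA-S94A, of 87 of the 89 tested members with its limma standard error, in descending order; orange marks the 11 called genes among them, circles the standard set, squares paralogs and diamonds numbered copies. The dashed line is the members' median of 0.20, and 80 of the 87 points lie above 0.

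Within the small subunit, 4 of 31 genes rose in YAP5SA (12.9%) and none fell, against 17.4% higher and 15.5% lower of all genes tested. The median difference was 0.22, or 0.14 to 0.25 with 1 library left out, and 29 differences were above 0. Rps19, needed for maturation of the small subunit and the gene most often mutated in Diamond-Blackfan anaemia (chromosome 1, 80480718 to 80486511, rn7), stood at 2554 and 2629 TPM in YAP5SA cells, against 1960.3 and 1829 TPM in YAP5SA-S94A cells. Its groups were well apart, with a log2 difference of 0.45 (SE 0.09, limma adjusted p = 0.00801). Rps16 stood at 1688 and 1573 TPM in YAP5SA cells, against 1355 and 1238 TPM in YAP5SA-S94A cells (log2 difference 0.33, limma adjusted p = 0.0331). Its protein lies in the head of the small subunit, near the bound tRNA.

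Rps3, at the channel where mRNA enters the ribosome, stood at 1482 and 1487 TPM in YAP5SA cells, against 1215 and 1209.8 TPM in YAP5SA-S94A cells. The 2 libraries of each form nearly coincided, and the difference of 0.29 passed (SE 0.08, limma adjusted p = 0.0332). Rps3 lost its call with FPKM, median-of-ratios scaling, quantile normalization, the mitochondrial chromosome left out, all genes above 0 TPM, and no intensity trend.

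Other 40S members with known roles outside or beside the ribosome did not pass. Rps6, the substrate of the S6 kinases downstream of mTORC1, stood at 1705 and 1855 TPM in YAP5SA cells, against 1509.8 and 1491 TPM in YAP5SA-S94A cells (log2 difference 0.25, limma adjusted p = 0.0748). Rpsa, also described as a laminin receptor, stood at 2130.2 and 1904 TPM in YAP5SA cells, against 1747 and 1652 TPM in YAP5SA-S94A cells (0.25, limma adjusted p = 0.0932). In both genes the forms did not overlap, but the size of the difference depended on the YAP5SA library. Without YAP5SA replicate 1 it was 0.31 for Rps6 and 0.16 for Rpsa, and without replicate 2 it was 0.18 and 0.33. Rps27a, made as a fusion with ubiquitin, stood at 975 and 1249 TPM in YAP5SA cells, against 859 and 857 TPM in YAP5SA-S94A cells (0.36, limma adjusted p = 0.064). Its YAP5SA libraries lay far apart, and without replicate 1 it was called higher (limma adjusted p = 0.00265).

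Within the large subunit, 5 of 46 genes rose (10.9%) and none fell, against 17.4% higher and 15.5% lower of all genes tested. The median difference was 0.20, or 0.16 to 0.24 with 1 library left out, and 44 differences were above 0. Rpl8, a core protein next to the peptidyl transferase centre (chromosome 7, 108626194 to 108628485, rn7), stood at 1513 and 1301 TPM in YAP5SA cells, against 1055 and 945 TPM in YAP5SA-S94A cells. It had the largest difference of the standard set, 0.49 (SE 0.11, limma adjusted p = 0.0132). Rpl4, which lines the exit tunnel, stood at 1326 and 1539 TPM in YAP5SA cells, against 1105 and 1115 TPM in YAP5SA-S94A cells (0.36, limma adjusted p = 0.0307). Both genes had every YAP5SA value above every YAP5SA-S94A value.

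Rpl31 and Rpl23a encode proteins around the mouth of the exit tunnel, where factors that receive the new protein dock. Rpl31 stood at 783 and 922 TPM in YAP5SA cells, against 661 and 655 TPM in YAP5SA-S94A cells (log2 difference 0.37, limma adjusted p = 0.0325). Rpl23a stood at 2031 and 2085 TPM in YAP5SA cells, against 1759 and 1638 TPM in YAP5SA-S94A cells (0.28, limma adjusted p = 0.0495). Rpl32, also named once its values were seen, stood at 1869 and 2099 TPM in YAP5SA cells, against 1607 and 1618 TPM in YAP5SA-S94A cells (0.30, limma adjusted p = 0.0496). Both Rpl23a and Rpl32 lay just under the threshold, and neither was called without YAP5SA replicate 2.

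The acidic stalk of the large subunit, which recruits translation factors, is built from Rplp0, Rplp1 and Rplp2, and none of these was called. Rplp0 stood at 2759 and 2317 TPM in YAP5SA cells, against 2317 and 2158 TPM in YAP5SA-S94A cells (log2 difference 0.18, limma adjusted p = 0.262), so the lower YAP5SA value met the higher YAP5SA-S94A value. Rplp1 overlapped, at 2717 and 2425 TPM in YAP5SA cells and 2529 and 2349 TPM in YAP5SA-S94A cells. Rplp2 stood at 1423 and 1346 TPM in YAP5SA cells, against 1295 and 1210.4 TPM in YAP5SA-S94A cells (0.14, limma adjusted p = 0.257). Rplp0 is a common reference gene for normalising expression, and without YAP5SA replicate 2 it was called higher (limma adjusted p = 0.0366).

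Rpl5 and Rpl11 bind the 5S rRNA and, when ribosome assembly is disturbed, the p53 regulator MDM2. Rpl5 stood at 1411 and 1662 TPM in YAP5SA cells, against 1306 and 1351 TPM in YAP5SA-S94A cells (log2 difference 0.20, limma adjusted p = 0.178). Rpl11 spread further in YAP5SA cells, at 853 and 1166 TPM, and overlapped the 946 and 927 TPM of YAP5SA-S94A cells (0.09, limma adjusted p = 0.676). Of the 10 ribosomal proteins mutated in Diamond-Blackfan anaemia on the list used here, all 10 had a difference above 0, with a median of 0.25. Among all members tested 91.0% lay above 0, and among all genes tested 50%. Only Rps19 of the 10 was called (10%), against 12.4% of the members and 17.4% of all genes called higher.

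Paralogs ranged from near absence to a level above that of the related standard gene. Rps27l, a paralog of Rps27 induced by p53, rose to 430 and 524 TPM in YAP5SA cells, against 376 and 364 TPM in YAP5SA-S94A cells (log2 difference 0.36, SE 0.11, limma adjusted p = 0.0484, or 0.057 without YAP5SA replicate 2). Rps27 itself overlapped between the forms, at 1062 and 1435 TPM in YAP5SA cells and 1209 and 1222 TPM in YAP5SA-S94A cells. Rps27l therefore made up 28.8% and 26.7% of the pair in YAP5SA cells, against 23.7% and 23.0% in YAP5SA-S94A cells. Rpl7l1 rose as well, with nearly identical replicates, at 86.3 and 86.8 TPM in YAP5SA cells, against 69.3 and 69.7 TPM in YAP5SA-S94A cells (0.31, limma adjusted p = 0.0444). Its relative Rpl7 stood at 1709 and 2094 TPM in YAP5SA cells, against 1535 and 1583 TPM in YAP5SA-S94A cells, and was not called (0.28, limma adjusted p = 0.105).

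Rpl39l, a paralog of Rpl39 best known from the testis, was the only member with a mean of at least 1 TPM that was called lower. It fell to 1.24 and 0.933 TPM in YAP5SA cells, against 2.56 and 2.59 TPM in YAP5SA-S94A cells (log2 difference −0.78, SE 0.24, limma adjusted p = 0.0437). The values of Rpl39l lie near the floor, which limits that call. The call was lost with a pseudocount of 0.1, and when YAP5SA replicate 2 or either YAP5SA-S94A library was left out. Rpl39 was 485 times more abundant on average, at 747 and 1130.4 TPM in YAP5SA cells and 847 and 826 TPM in YAP5SA-S94A cells, and overlapped. Rpl3l, the striated-muscle paralog of Rpl3, was listed at 0 in both YAP5SA libraries and at 1.09 and 0.754 TPM in the YAP5SA-S94A libraries. It lay under the mean of 1 TPM and so was not in the fit used here. In the alternative fit of all genes above 0 TPM, its difference was −0.94 (SE 0.13, limma adjusted p = 0.018). All its values lie near the floor, which limits that call. Rpl3, its ubiquitous counterpart, stood at 1493 and 1502 TPM in YAP5SA cells, against 1307 and 1287 TPM in YAP5SA-S94A cells (0.21, limma adjusted p = 0.0983).

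Rpl22l1 was the one paralog that exceeded its parent gene. Rpl22l1 stood at 282 and 441 TPM in YAP5SA cells and 329 and 330.5 TPM in YAP5SA-S94A cells, against 162 and 171 TPM in YAP5SA cells and 150 and 147 TPM in YAP5SA-S94A cells for Rpl22. It made up 63.5% and 72.1% of the pair in YAP5SA cells and 68.8% and 69.1% in YAP5SA-S94A cells. The YAP5SA libraries lay on either side of the others, so Rpl22l1 was called higher without YAP5SA replicate 1 (log2 difference 0.42, limma adjusted p = 0.00602) and lower without YAP5SA replicate 2 (−0.23, limma adjusted p = 0.0464). Rpl36al1, listed for the Rpl36al paralog, was close to its parent: 526 and 627 TPM in YAP5SA cells and 536 and 512 TPM in YAP5SA-S94A cells, against 559 and 673 TPM in YAP5SA cells and 589 and 537 TPM in YAP5SA-S94A cells for Rpl36a. Rpl10l1, listed for the testis-enriched Rpl10l, stood at 31.4 and 22.7 TPM in YAP5SA cells and 21.6 and 23.1 TPM in YAP5SA-S94A cells, while its parent Rpl10 stood at 2177 and 2246 TPM in YAP5SA cells and 2257 and 2216 TPM in YAP5SA-S94A cells. Rpl26l1 stayed between 0.992 and 2.54 TPM in the 4 libraries, and its parent Rpl26 stood at 1844 and 2208 TPM in YAP5SA cells, against 1838 and 1825 TPM in YAP5SA-S94A cells.

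Near-identical copies share reads, so the split between a parent gene and its copies is uncertain. The starts of 6 of the 8 paralogs are shown with 2 parent genes to set their first bases side by side, in the same form as above (Rpl39l is entered as Rpl39l1 in the RefSeq table). Within 10 bases of the annotated start, 3 of the 8 paralogs (Rpl3l, Rpl7l1 and Rpl36al1) hold such a run, each after the start, and Rpl39 holds it at the start. The windows of Rpl3, Rps27l, Rpl22l1 and Rpl39l hold none, nor do those of Rpl10l1 and Rpl26l1, which are not shown.
Rpl3 (chr7:113507971-113508030, minus strand): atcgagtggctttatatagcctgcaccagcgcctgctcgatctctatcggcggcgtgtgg
Rpl3l (chr10:14258406-14258465, plus strand): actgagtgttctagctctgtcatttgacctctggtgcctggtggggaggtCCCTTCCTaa
Rps27l (chr8:76443618-76443677, plus strand): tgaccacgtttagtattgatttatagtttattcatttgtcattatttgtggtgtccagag
Rpl22l1 (chr2:113683156-113683215, plus strand): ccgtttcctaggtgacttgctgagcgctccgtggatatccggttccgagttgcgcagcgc
Rpl7l1 (chr9:21695678-21695737, plus strand): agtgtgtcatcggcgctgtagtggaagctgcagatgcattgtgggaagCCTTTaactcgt
Rpl36al1 (chr6:93392239-93392298, minus strand): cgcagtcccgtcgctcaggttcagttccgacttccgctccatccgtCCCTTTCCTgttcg
Rpl39 (chrX:121195877-121195936, minus strand): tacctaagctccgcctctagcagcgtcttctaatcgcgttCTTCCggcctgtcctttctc
Rpl39l (chr10:5966602-5966661, minus strand): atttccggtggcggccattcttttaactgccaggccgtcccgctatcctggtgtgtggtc

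**Figure D3:**
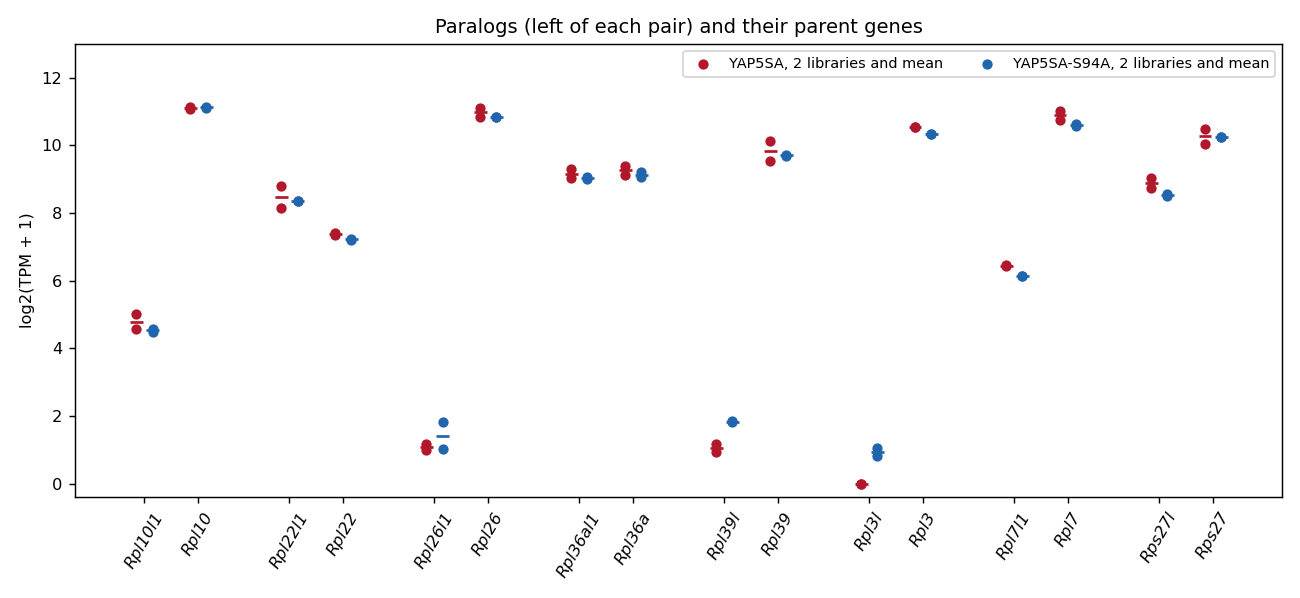
Log2(TPM + 1) level of each of the 8 paralogs (left of each pair) and its parent gene; red points are the 2 YAP5SA libraries and blue points the 2 YAP5SA-S94A libraries, with a bar at each mean. Rpl22l1 lies above Rpl22, Rpl36al1 lies beside Rpl36a, and Rpl3l is at 0 in both YAP5SA libraries.

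The spread between the libraries of a form was uneven. Over the 77 standard genes, the log2 difference of replicate 2 minus replicate 1 had an SD of 0.22 in YAP5SA cells and 0.08 in YAP5SA-S94A cells. It exceeded 0.2 in size in 33 genes in YAP5SA cells and in 3 in YAP5SA-S94A cells. Picked after their values were seen, Rpl39 was the gene most raised in YAP5SA replicate 2 (by 0.60) and Rpl36 the most lowered (−0.44). As a description, the log2 levels of the 77 genes correlated at r = 0.954 between the 2 YAP5SA libraries and 0.995 between the 2 YAP5SA-S94A libraries, and at 0.967 to 0.983 between the forms. The levels thus correlated less between the 2 YAP5SA libraries than in any of the 4 pairs across the forms, and the number of called members changed with the YAP5SA library left out, as given above.

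**Figure D4:**
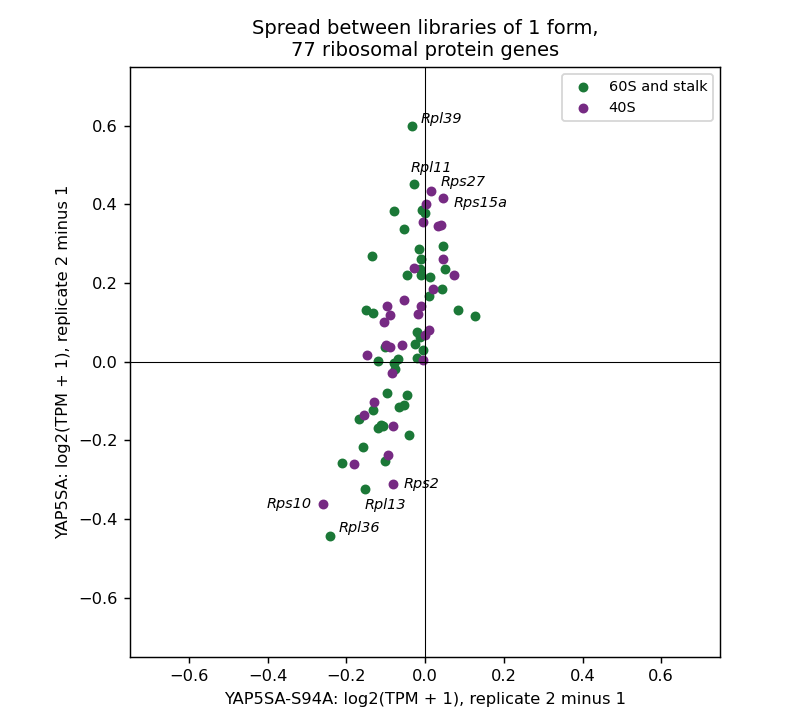
Log2(TPM + 1) difference between replicate 2 and replicate 1 of each form for the 77 standard genes, YAP5SA on the vertical and YAP5SA-S94A on the horizontal axis, both on the same scale; green marks 60S and purple 40S proteins. Points spread from −0.44 to 0.60 along the YAP5SA axis and from −0.26 to 0.13 along the YAP5SA-S94A axis.

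Genes that build the ribosome had a higher median difference than the ribosomal proteins, and the lists were not tested against each other. Of 95 ribosome biogenesis factors, 43 were called higher in YAP5SA (45.3%) and 1 lower, against 17.4% and 15.5% of all genes tested, with a median difference of 0.39. With 1 library left out, the median difference of these factors ran from 0.36 to 0.44. The 4 with the smallest p were Wdr75, Nhp2, Rrp9 and Nop56. Wdr75, a component of the early small-subunit processome, stood at 53.2 and 53.5 TPM in YAP5SA cells, against 17.9 and 17.4 TPM in YAP5SA-S94A cells (log2 difference 1.55, SE 0.11, limma adjusted p = 0.000113). Nhp2, a core protein of the H/ACA snoRNPs that modify rRNA, stood at 119.6 and 113 TPM in YAP5SA cells, against 47.9 and 50.1 TPM in YAP5SA-S94A cells (1.23, limma adjusted p = 0.00018). Rrp9 and Nop56 belong to the box C/D snoRNPs, the other class of such particles. Rrp9 stood at 32.5 and 31.2 TPM in YAP5SA cells, against 10.7 and 13.7 TPM in YAP5SA-S94A cells. Nop56 stood at 78.3 and 83.1 TPM in YAP5SA cells, against 43.9 and 39.98 TPM in YAP5SA-S94A cells (0.93, limma adjusted p = 0.000873). In all 4 genes the forms were far apart. Nob1, the nuclease that finishes 18S rRNA and the 1 factor called lower (named after its value was seen), stood at 54.2 and 41.4 TPM in YAP5SA cells, against 73.3 and 73.9 TPM in YAP5SA-S94A cells (−0.62, limma adjusted p = 0.0147).

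The RNA polymerase I list, which covers synthesis of rRNA, moved in both directions: 4 of 15 genes were called higher (26.7%) and 1 lower, against 17.4% and 15.5% of all genes tested, with a median of 0.17. Without YAP5SA-S94A replicate 1, 2 were called higher, and none was called lower without YAP5SA replicate 2 or either YAP5SA-S94A library. Polr1g, a polymerase subunit, stood at 17.9 and 18.96 TPM in YAP5SA cells, against 6.97 and 6.53 TPM in YAP5SA-S94A cells (log2 difference 1.33, limma adjusted p = 0.000743). Polr1f, another subunit, stood at 15.03 and 15.7 TPM in YAP5SA cells, against 7.73 and 8.46 TPM in YAP5SA-S94A cells (0.85, limma adjusted p = 0.00528). Taf1d, part of the promoter selectivity factor, was also higher (0.57, limma adjusted p = 0.032). Ubtf, which binds rDNA and opens it for the polymerase, stood at 56.0 and 52.0 TPM in YAP5SA cells, against 75.7 and 67.7 TPM in YAP5SA-S94A cells (−0.40, limma adjusted p = 0.0316).

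A list of translation factors and some other genes, taken as having TOP mRNAs, divided. It is called the translation factors here, and the starts of its genes were not read. Of 16, 6 were called higher (37.5%) and 1 lower, against 17.4% and 15.5% of all genes tested, with a median of 0.12. None was called lower without either one of the YAP5SA-S94A libraries. Eef1g, a subunit of the factor that recharges elongation factor 1A, stood at 2040.4 and 1935 TPM in YAP5SA cells, against 1231 and 1175 TPM in YAP5SA-S94A cells (log2 difference 0.72, SE 0.09, limma adjusted p = 0.000984). Its partner subunits Eef1d and Eef1b2 rose with it, by 0.56 and 0.51 (limma adjusted p = 0.0036 and 0.0059). Naca, a subunit of the complex that meets nascent chains at the tunnel exit, stood at 495 and 498 TPM in YAP5SA cells, against 330.1 and 342 TPM in YAP5SA-S94A cells (0.56, limma adjusted p = 0.00255). Eif4b, a cofactor of the initiation helicase, fell by 0.39 (limma adjusted p = 0.0127) and is named after its value was seen.

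Known regulators of ribosomal protein synthesis were measured alongside. Of 19 genes of mTORC1 signalling and TOP mRNA control, 1 was called higher (5.26%) and 1 lower, against 17.4% and 15.5% of all genes tested, with a median of 0.11. With 1 library left out, the counts ran from 1 to 3 higher and from 0 to 3 lower. Ssb, the La protein, which binds TOP mRNAs, stood at 173 and 209 TPM in YAP5SA cells, against 131 and 132 TPM in YAP5SA-S94A cells (log2 difference 0.52, limma adjusted p = 0.0124). Eif4ebp2, a repressor that binds the cap-binding protein eIF4E, stood at 43.6 and 40.1 TPM in YAP5SA cells, against 56.8 and 59.6 TPM in YAP5SA-S94A cells (−0.47, limma adjusted p = 0.0166). Myc stood at 26.6 and 24.6 TPM in YAP5SA cells, against 8.91 and 8.60 TPM in YAP5SA-S94A cells (1.45, SE 0.14, limma adjusted p = 0.000369). Mycn stood at 28.2 and 21.6 TPM in YAP5SA cells, against 4.42 and 2.49 TPM in YAP5SA-S94A cells (2.56, SE 0.25, limma adjusted p = 0.000383). Their partner Max fell by 0.41 (limma adjusted p = 0.0244), and Mycl stayed under 0.15 TPM in every library.

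Genes with the symbols of mitochondrial ribosomal proteins, whose ribosomes translate the few mitochondrially encoded mRNAs, went both ways. They were taken by symbol alone, and whether each protein, Mrps36 included, is part of that ribosome was not checked. Of 74 tested, 6 were called higher (8.11%) and 8 lower, against 17.4% and 15.5% of all genes tested, with a median of −0.10. With 1 library left out, between 4 and 13 were called higher and between 3 and 18 lower. Mrps6 stood at 167 and 175 TPM in YAP5SA cells, against 98.9 and 97.9 TPM in YAP5SA-S94A cells (log2 difference 0.79, limma adjusted p = 0.000857). Mrpl15 stood at 114 and 125 TPM in YAP5SA cells, against 196 and 198 TPM in YAP5SA-S94A cells (−0.72, limma adjusted p = 0.00145), and Mrps36 and Mrps35 also fell (by 0.61 and 0.58 on the log2 scale, limma adjusted p = 0.00281 and 0.00717). Of the 6 lists plotted together, the cytosolic ribosomal proteins had the narrowest quartiles, 0.14 to 0.29, compared with 0.19 to 0.69 for biogenesis factors and −0.25 to 0.18 for mitochondrial ribosomal proteins, and these ranges were not tested against each other.

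**Figure D5:**
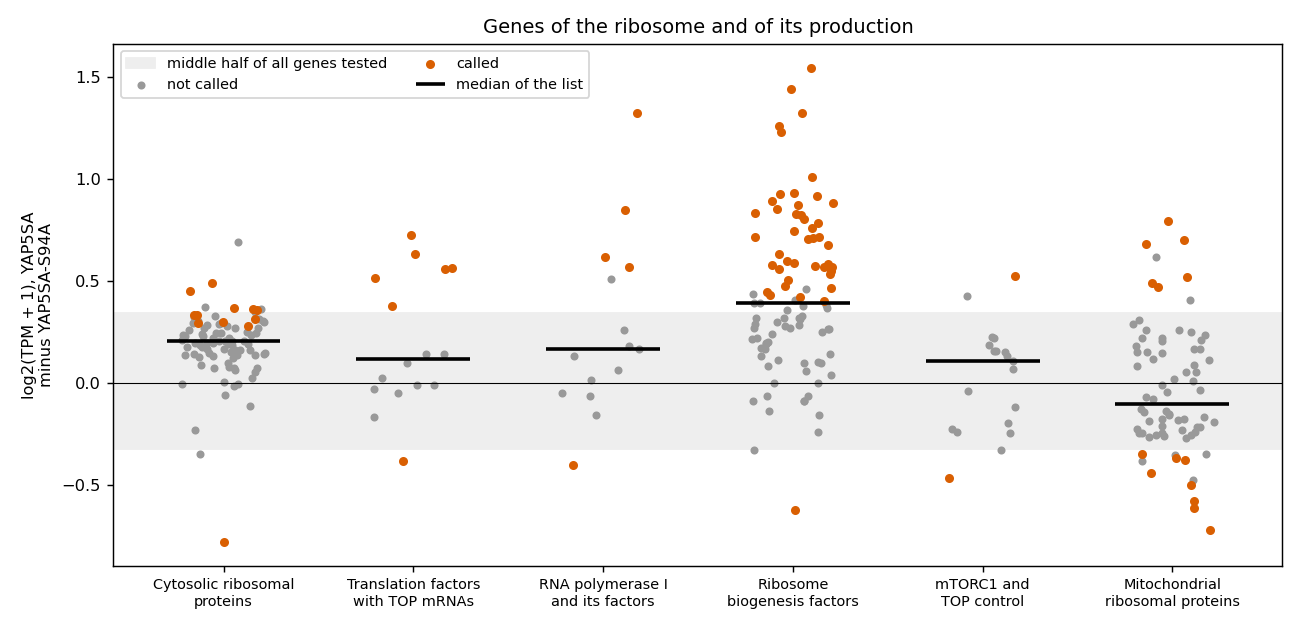
Log2(TPM + 1) difference, YAP5SA minus YAP5SA-S94A, of each tested gene in 6 lists; orange points are called genes, black bars list medians, and the grey band holds the middle quartiles of all genes tested, −0.33 to 0.34. Cytosolic ribosomal proteins gather around 0.20, and biogenesis factors reach up to 1.55.

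Reads from overlapping genes add a limit, because whether counting used the strand is not given in the sources used here. An expressed gene on the opposite strand overlaps 6 members: Rpl31, Rpl37l1, Rpl5l1, Rps18, Rps23 and Rps25. For Rpl31 the overlapping gene Tbc1d8 averaged 20.2 TPM against 755 TPM for Rpl31, and for Rps18, Rps23 and Rps25 the member was likewise at least 29.3 times the more abundant. For Rpl37l1 the overlapping Vps53 was the more abundant, at 25.2 TPM against 6.67 TPM, so its value is uncertain. Rpl5l1 averaged 0.0767 TPM and its overlapping gene 1.42 TPM, so its value is uncertain too.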

How the data were processed

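RNA of neonatal rat cardiomyocytes was sequenced in 4 poly(A)-selected, directional libraries, per the labels' protocols. The submitters' processing notes name the rat build rn7, HISAT2 2.2.1, R 4.3.1, StringTie 2.2.1 and fastp, without settings. The deposited TPM values, scaled by the authors to a fixed sum per library, were used throughout. The deposited FPKM values, a depth- and length-scaled measure by the authors, served as an alternative. The deposited coverage values (per the file headers, Coverage; how the authors made them is not given in the sources used here) gave the aligned sequence per library through their ratio to FPKM. Read counts were not used here. Whether counting used the strand is not given in the sources used here.

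TPM was summed over entries sharing a gene name (517 names on more than 1 of the 40903 entries, no member among them). Genes with a mean of at least 1 TPM were log-transformed as log2(TPM + 1) and tested by limma 3.58.1, run in R 4.3.3 with its trend on mean level (residual degrees of freedom 2, prior 5.09) and Benjamini-Hochberg adjustment over 13420 genes. This scale understates the change of low genes. The design had no covariate. The method was tested on simulated data. Python 3.11.15 was used for tables (pandas 2.3.3, numpy 2.4.6) and for figures (matplotlib 3.10.9). Printed gene coordinates are those of the deposited tables. All 100 members found in the RefSeq gene table (GRCr8) lay on the same chromosome there.

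The members and the gene lists were chosen with earlier results of these data known. Values of some single genes, and their points in the plots that name each gene, are not reported here, though they entered every fit and count. Named were the 5 most abundant members, up to 10 called members per direction with the smallest p, paralogs with their parents, 8 members with known further roles, the members under 1 TPM, and up to 4 called genes (or 2 where none was called) of each other list. Per the labels the 2 libraries of a form are biological replicates, with nothing on separate cultures or isolations, so p-values measure the spread between these samples, which may be technical. Lists are described by counts and medians, with no set test. The alternatives changed the pseudocount, low-value filter, unit, scaling, variance model, threshold or entry per name, added the replicate number as a block, or left out 1 library.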

Additional observations from a re-analysis of the deposited data

How the results depend on the processing

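The members' median difference stayed between 0.11 and 0.24 in all 16 alternatives that could move it, while the median of all genes moved by at most −0.07 (mitochondrial chromosome left out). The number of members called higher moved with many of them. It was 4 with FPKM, 1 with all genes above 0 TPM, 6 with median-of-ratios scaling, 4 with the mitochondrial chromosome left out, 1 with no intensity trend, 6 with quantile normalization and 1 at an adjusted p under 0.01. The cause was not tested. With 2 libraries per form and p-values near the threshold, single calls are limited.

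The titles give both forms the replicate numbers 1 and 2, but the library names carry other numbers, of which the forms share a single one, and nothing says what a number marks. The replicate differences of the forms correlated at 0.101 over all genes and 0.673 over the 77 standard genes. With the replicate number as a block, 2726 of the 13420 genes tested were called higher and 2593 lower. In that fit 30 of the 89 members were called higher, including all 11, with 14 of the 31 40S genes and 13 of the 46 60S genes. It also called higher 5 of the 10 Diamond-Blackfan genes and 1 of the 3 proteins under other names. Of the 19 mTORC1 genes, 2 were called higher and 2 lower.

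At an adjusted p under 0.01, 1439 genes were called higher and 1046 lower. The counts were then 1 for 40S, 0 for 60S and 0 for paralogs, 2 for RNA polymerase I, 23 for biogenesis factors, 0 for mTORC1 and 2 for mitochondrial ribosomal proteins (3 lower), and 0 lower for all members, paralogs, translation factors, RNA polymerase I, biogenesis, mTORC1 and MYC factors. With FPKM, 40S had 1, 60S 3 and paralogs 0 called higher, and the MYC median was 1.29. With all genes above 0 TPM, 40S and 60S had 0, paralogs 1, Diamond-Blackfan 0, RNA polymerase I 2 (0 lower), mTORC1 0 and mitochondrial 2 (3 lower), biogenesis had 0 lower, and the MYC median was 0.67. With a mean of 5 TPM, 0 members and 0 paralogs were called lower and 1 protein under another name higher. Median-of-ratios scaling gave 2 for 60S and 1 for paralogs. Leaving out the mitochondrial chromosome gave 1 for 60S, 0 for paralogs, 2 mTORC1 genes lower, 15 mitochondrial ribosomal proteins lower and a share difference of 1.14 points. With no trend, 40S had 1, 60S 0, paralogs 0, mTORC1 0 and mitochondrial 3 (3 lower), and translation, RNA polymerase I and MYC factors had 0 lower. A pseudocount of 0.1 gave 1 paralog higher, and 0 members and 0 paralogs lower. Quantile normalization gave 3 for 60S, 0 for paralogs, a 40S median of 0.11 and a share difference of 0.771 points. Scaled to genes other than the members, 60S had 8, Diamond-Blackfan 2, other names 1 and mTORC1 2, and the share difference was 1.97 points.

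With each library left out in turn, genes called lower ranged from 1299 to 2891, members called higher from 1 to 47 and lower from 0 to 1, 40S from 0 to 17, 60S from 0 to 24, and paralogs from 0 to 4 (lower 0 to 1). Diamond-Blackfan genes ranged from 0 to 6, other names from 0 to 2, RNA polymerase I from 2 to 3 (lower 0 to 1), biogenesis from 23 to 51 (lower 1 to 2), mTORC1 from 1 to 3 (lower 0 to 3), mitochondrial from 4 to 13 (lower 3 to 18), and translation and MYC factors called lower from 0 to 1. The translation factor median ranged from 0.11 to 0.22. The counts of genes called higher in these fits are given without the matching share of all genes. The share of starts with a TOP was 26.2% for a run of at least 6 after the C, 75.4% within 10 bases, and 62.3% with both.

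The sign turned in these cases, where the limma adjusted p of the turned value was between 0.0658 and 0.981 except as stated. With FPKM, Rps27 was at −0.0065. Without the mitochondrial chromosome, Rpl41 was at −0.0096 and Rps27 at −0.0489. With quantile normalization, Rpl41 was at −0.0116, Rps29 at −0.0188, Rplp1 at −0.0828, Rpl26 at −0.032 and Rps27 at −0.0394. Scaled to other genes, Rpl10 was at 0.0093. With each library left out in turn, Rpl41 ranged from −0.0132 to 0.1376, Rplp1 from −0.0074 to 0.1566, Rpl10 from −0.0384 to 0.0066, Rpl36a from −0.0072 to 0.2603, Rpl39 from −0.1639 to 0.434, Rps27 from −0.1941 to 0.2397, Rpl11 from −0.1354 to 0.3152 and Rpl26l1 from −0.7442 to 0.0478. Rpl22l1 ranged from −0.225 without YAP5SA replicate 2 (adjusted p = 0.0464) to 0.4181 without replicate 1 (adjusted p = 0.00602).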

Other observations

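Ribosomal proteins that carry other names fall outside the name rule. Rack1, the scaffold protein on the head of the small subunit, stood at 1401 and 1362 TPM in YAP5SA cells, against 1174 and 1134 TPM in YAP5SA-S94A cells (log2 difference 0.26, limma adjusted p = 0.0528). Fau, made as a fusion of a ubiquitin-like protein with a 40S protein, stood at 1332 and 1183 TPM in YAP5SA cells, against 1151 and 1109 TPM in YAP5SA-S94A cells (0.15, limma adjusted p = 0.264). Neither was called with limma, and Rack1 was higher at an unadjusted p under 0.05.

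Among the numbered copies, 5 reached a mean of 1 TPM. The most abundant, Rpl30l2, stood at 76.8 and 93.2 TPM in YAP5SA cells, against 65.8 and 74.3 TPM in YAP5SA-S94A cells. Rps15al4 had the largest positive difference of all members (0.69, SE 0.22, limma adjusted p = 0.052) and was not called, at 21.4 and 33.6 TPM in YAP5SA cells, against 14.6 and 18.2 TPM in YAP5SA-S94A cells. The 13 members under a mean of 1 TPM were Rpl27l1, Rpl3l, Rps12l4, Rps12l2, Rps12l3, Rps15al2 and Rpl5l1, with at least 1 library above 0, and Rpl34l1, Rpl30l1, Rpl22l2, Rpl31l2, Rpl31l1 and Rps15al1, listed at 0 in all 4 libraries.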
